A study of Homo sapiens with 8 samples.

Results

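The 8 loci described here lie within a window of 180 kb on chromosome 17 (GRCh38) that holds the tandem genes of the U2 small nuclear RNA and the long noncoding RNA LINC00910. They are all the loci with values that lie wholly within that window, 8 of the 15469 loci with values in the study's long noncoding RNA tables. Shares, ranks and counts of loci below are within those tables and not over all RNA. The window was proposed with its response to JQ1 known, so the JQ1 values of its loci are given as a description and not as a test. RNA was measured in LM3 and HepG2, 2 human lines that the labels call hepatocellular carcinoma, each treated with JQ1 or with vehicle (DMSO). The groups are LM3 with JQ1, LM3 with vehicle, HepG2 with JQ1 and HepG2 with vehicle, with 2 libraries each. The labels give no dose or time for JQ1, and they do not say that replicates came from separate cultures, so errors and p-values cover no more than library-to-library spread, possibly a technical one.

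U2 is the small nuclear RNA of the spliceosome that pairs with the branch site of an intron. Its genes are transcribed by RNA polymerase II, and the Integrator complex cuts the nascent RNA shortly after the U2 sequence in place of the usual cleavage and polyadenylation. JQ1 is a small molecule that displaces bromodomain proteins of the BET family from acetylated chromatin.

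GENCODE release 29 annotates 13 U2 genes in the array, RNU2-1 (43233787 to 43233977) and 12 further copies, all on the minus strand and together spanning 66.4 kb. The transcript sequences of 11 of the 13, RNU2-1 included, were identical, and the remaining 2 were 99.5% identical to RNU2-1. A related pseudogene, RNU2-4P (43387226 to 43387417, minus strand), lies inside LINC00910 and matched RNU2-1 at 178 of 192 aligned positions, 92.7%. Both are shown 5′ to 3′ as GENCODE transcripts of GRCh38, since they are the U2 sequences at the 2 ends of the region, with capitals on the 6 bases that pair with the intron branch site, which all 13 array copies also carry.
RNU2-1: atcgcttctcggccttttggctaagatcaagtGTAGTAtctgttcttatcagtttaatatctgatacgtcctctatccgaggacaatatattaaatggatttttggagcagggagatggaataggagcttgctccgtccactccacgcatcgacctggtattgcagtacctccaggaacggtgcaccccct
RNU2-4P: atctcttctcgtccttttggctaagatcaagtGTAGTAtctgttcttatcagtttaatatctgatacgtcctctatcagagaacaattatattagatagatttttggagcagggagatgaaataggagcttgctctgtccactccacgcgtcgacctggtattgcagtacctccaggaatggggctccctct
Reads from sequences this alike cannot be assigned to 1 copy. How the authors' counting treated such reads is not given in the sources used here, so the division of signal among the loci that hold U2 copies is uncertain.

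All loci but one are on the minus strand, like the U2 genes. From RNU2-1 toward higher coordinates, which is upstream for the minus strand, the first is LXLOC_024647 (43231705 to 43235949), which contains RNU2-1 itself. LXLOC_024649 (43237234 to 43264580) lies 3.26 kb beyond RNU2-1 and holds 4 copies. LXLOC_024650 (43237947 to 43255599) and LXLOC_024651 (43239516 to 43251805) lie wholly inside LXLOC_024649 and hold 4 and 3 of the same copies. LXLOC_024656 (43264788 to 43295344) lies 30.8 kb from RNU2-1 and holds 6 copies. The remaining loci hold no array copy. LXLOC_023196 (43308039 to 43367231), the one locus on the plus strand, starts 74.1 kb from RNU2-1. LXLOC_024665 (43324331 to 43361361, minus) lies 90.4 kb away at its near edge and lies wholly within the span of LXLOC_023196 on the opposite strand. LINC00910 (ENSG00000188825; 43338741 to 43389199, minus) lies 104.8 kb from RNU2-1 at its near edge and shares 22621 bases with LXLOC_024665 on the same strand. In GENCODE release 29 LINC00910 is shorter, from 43369845 to 43389199, and does not reach LXLOC_024665. Names beginning with LXLOC are the authors' own, and the strand setting of the counting is not given, so reads from overlapping loci on either strand cannot be told apart.

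**Figure D1:**
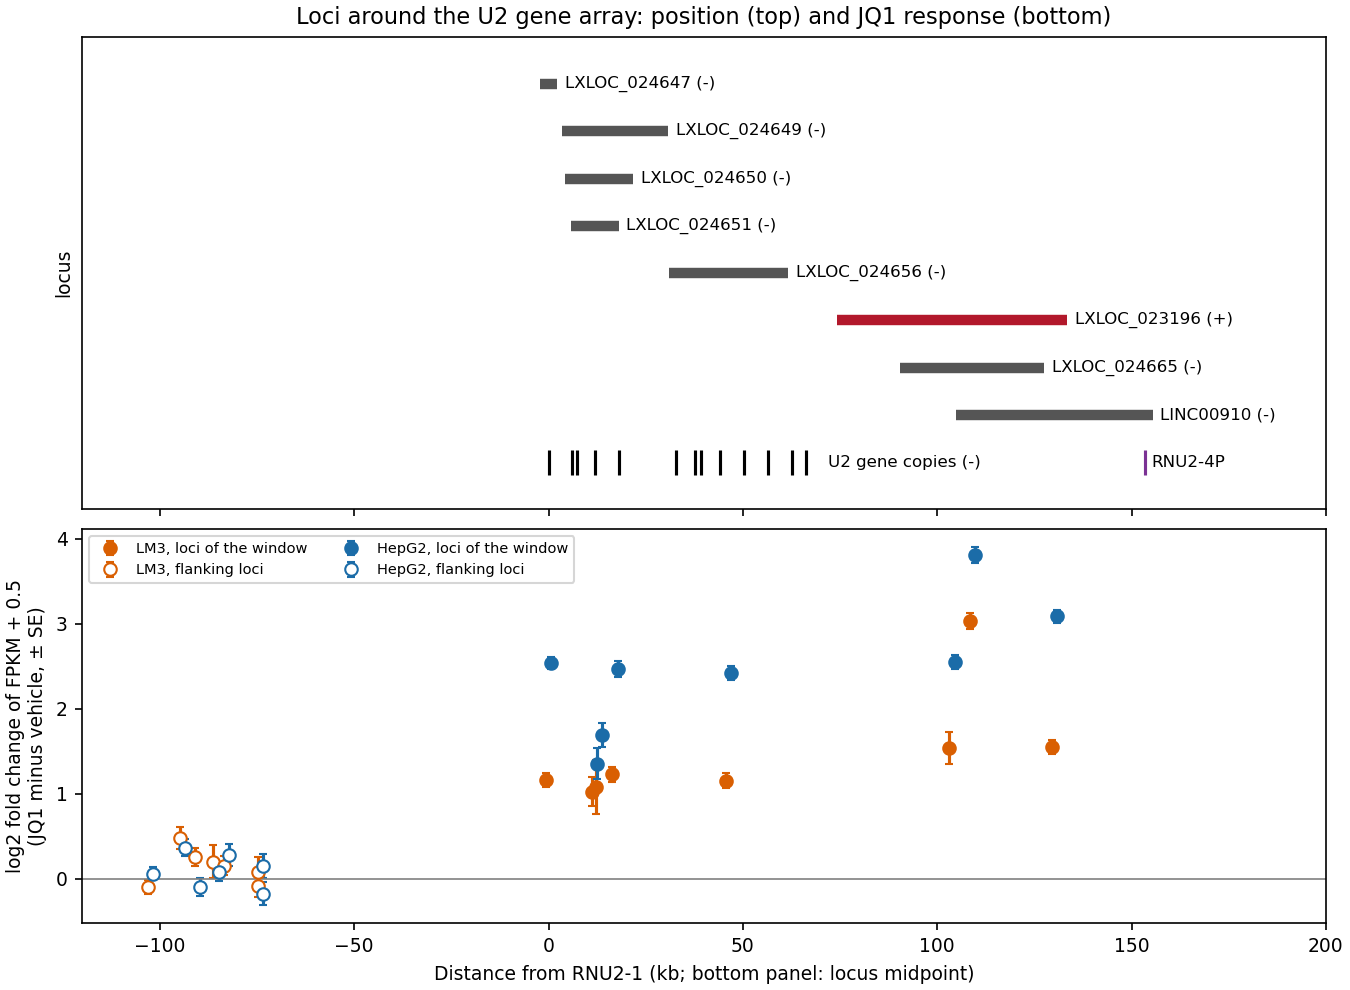
Upper panel, the 8 loci (grey, minus strand; red, plus strand) and the U2 gene copies by distance from RNU2-1 in kb. Lower panel, log2 fold change of FPKM + 0.5, JQ1 minus vehicle, with its SE, by locus midpoint in LM3 and HepG2 (filled, loci of the window; open, flanking loci within the plotted range). Every filled point lies above 1, and every open point below 0.5.

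Levels are the deposited FPKM, fragment counts scaled by the authors for length and sequencing depth, in 1 table per line. Only the start and end of each locus are given, not the exons or the length used. Whether a locus that holds U2 copies counted the U2 sequence itself is therefore unknown. Table sums were 34148 and 34771 FPKM in the LM3 JQ1 libraries, 34066 and 35742 in LM3 vehicle, 31309 and 32765 in HepG2 JQ1 and 30699 and 29369 in HepG2 vehicle. The liver RNA HULC was low, at 0.50 to 0.80 FPKM over the 8 libraries. Of 7 liver-lineage RNAs 5 had values, and they summed to 311 to 349 FPKM in LM3 with JQ1 and 312 to 349 with vehicle, and to 2104 to 2237 in HepG2 with JQ1 and 2046 to 2257 with vehicle, nearly all of it H19. The other members of the list were low and did not move together. CPS1-IT1 had 0.26 to 0.41 FPKM in LM3 with JQ1 and 1.34 to 1.41 with vehicle, and 1.22 to 1.33 in HepG2 with JQ1 and 6.79 to 6.84 with vehicle. LINC01485 had 0 to 0.04 FPKM in LM3 with JQ1 and 0.04 to 0.05 with vehicle, and 0.28 to 0.46 in HepG2 with JQ1 and 0.94 to 0.98 with vehicle. LINC01554 had 0.18 to 0.25 FPKM in LM3 with JQ1 and 0.14 to 0.15 with vehicle, and 0.30 to 0.31 in HepG2 with JQ1 and 0.21 with vehicle. The part of these RNAs in the results was not tested. Of 6 markers of other cell types 5 had values, which summed to 1.36 to 1.37 FPKM in LM3 with JQ1 and 1.08 to 1.76 with vehicle. In HepG2 they summed to 1.12 to 1.15 with JQ1 and 1.23 to 1.28 with vehicle. The highest was LINC00926, a B-cell marker, at 0.92 to 1.00 FPKM in LM3 with JQ1 and 0.74 to 1.14 with vehicle. Its HepG2 range was 0.76 to 0.81 FPKM with JQ1 and 0.81 to 0.94 with vehicle. LINC00861 was at 0.01 or below. Pearson's r across loci between replicates was 0.961 to 0.979.

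The most abundant array locus with JQ1 was LXLOC_024656, and the lowest, LXLOC_024650, ranked 1008th in LM3 and 321st in HepG2. LXLOC_024656 ranked 54th of 15469 loci by its vehicle mean in LM3 and 36th in HepG2, and with JQ1 it ranked 27th in LM3 and 9th in HepG2. The 8 loci together summed to 416 and 429 FPKM in the LM3 JQ1 libraries, against 174 and 184 FPKM in LM3 vehicle. In HepG2 they summed to 1091 and 1170 FPKM with JQ1, against 259.6 and 228 FPKM with vehicle. Their share of all FPKM in the long noncoding RNA tables was 1.22% and 1.24% in the LM3 JQ1 libraries, against 0.512% and 0.515% in LM3 vehicle. In HepG2 the share was 3.48% and 3.57% with JQ1, against 0.846% and 0.776% with vehicle. The sum was thus 2.36 times the vehicle sum in LM3 and 4.64 times in HepG2. Overlapping loci may count the same fragments more than once in these sums. In bulk RNA, more RNA per cell and more cells with the RNA cannot be told apart.

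LXLOC_024647, around RNU2-1, had 57.9 and 55.95 FPKM in the LM3 JQ1 libraries and 25.05 and 25.25 FPKM in LM3 vehicle. The HepG2 libraries had 179.7 and 193 FPKM with JQ1 and 31.7 and 31.45 FPKM with vehicle. The JQ1 libraries were well above the vehicle libraries in both lines, and replicates lay close together. Its mean was 2.26 times that of vehicle in LM3 (log2 fold change 1.16, SE 0.079) and 5.89 times in HepG2 (2.54, SE 0.073). Log2 fold changes here and below are differences of log2(FPKM + 0.5) between JQ1 and vehicle, with n = 2 libraries per group, and understate the change of low loci.

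LXLOC_024656, the locus with most U2 copies and the highest JQ1 level of the 8 in each line, had 151 and 148 FPKM in LM3 with JQ1 and 69.45 and 64.4 FPKM with vehicle. Values in HepG2 were 419.8 and 461 FPKM with JQ1 and 79.7 and 83.7 FPKM with vehicle. The groups did not overlap in either line, and the log2 fold change was 1.15 (SE 0.083) in LM3 and 2.42 (SE 0.084) in HepG2. LXLOC_024649 followed it closely in size of change. It had 39.5 and 37.5 FPKM in LM3 with JQ1 and 16.8 and 15.55 FPKM with vehicle, and in HepG2 119 and 137 FPKM with JQ1 and 22.6 and 22.7 FPKM with vehicle. Its log2 fold changes were 1.23 (SE 0.089) in LM3 and 2.47 (SE 0.094) in HepG2.

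The loci nested within LXLOC_024649 had the smallest HepG2 differences of the 8. LXLOC_024651 had 108 and 125 FPKM in LM3 with JQ1 and 49.2 and 65.65 FPKM with vehicle. Its HepG2 libraries had 234 and 233 FPKM with JQ1 and 109 and 75.8 FPKM with vehicle. Its vehicle libraries were widely spread, 92.6 ± 23.8 FPKM in HepG2 (mean ± SD, n = 2), and still lay below both JQ1 libraries. The log2 fold changes were 1.02 (SE 0.18) in LM3 and 1.35 (SE 0.19) in HepG2. LXLOC_024650, the least abundant locus, had 3.52 and 4.32 FPKM in LM3 with JQ1 and 2.32 and 1.05 FPKM with vehicle. HepG2 libraries gave 9.17 and 10.8 FPKM with JQ1 and 3.09 and 2.44 FPKM with vehicle. Its log2 fold change of 1.07 (SE 0.32) in LM3 was 1.51 without vehicle replicate 1 and 0.64 without vehicle replicate 2, and that in HepG2 was 1.69 (SE 0.14).

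Upstream of the array, loci without an array copy were low with vehicle, though the array locus LXLOC_024650 was lower still. In LM3 their log2 fold changes were larger than those of the array loci. In HepG2 this held clearly for LXLOC_024665 and LINC00910, which overlap, while LXLOC_023196 (2.55) was about level with LXLOC_024647 (2.54). LXLOC_024665 had 32.1 and 29.2 FPKM in LM3 with JQ1 and 3.35 and 3.26 FPKM with vehicle. In HepG2 it had 58.8 and 61.3 FPKM with JQ1 and 4.16 and 3.53 FPKM with vehicle. Its mean with JQ1 was 9.27 times that with vehicle in LM3 and 15.6 times in HepG2. The log2 fold changes of 3.03 (SE 0.090) and 3.80 (SE 0.097) were the highest of all 6474 loci tested in LM3 and of all 5906 tested in HepG2.

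LINC00910, which overlaps LXLOC_024665, had 15.0 and 15.45 FPKM in LM3 with JQ1 and 4.69 and 5.04 FPKM with vehicle. In HepG2 it had 51.7 and 53.2 FPKM with JQ1 and 5.98 and 5.48 FPKM with vehicle. With vehicle LINC00910 was thus slightly above LXLOC_024665 in both lines, and with JQ1 it was below it. Over the groups the level of LINC00910 was highest in HepG2 with JQ1, then in LM3 with JQ1, and lowest with vehicle, at 4.69 to 5.04 FPKM in LM3 and 5.48 to 5.98 FPKM in HepG2. Each line has its own table, and how the tables were scaled to each other is not given. The plus-strand locus LXLOC_023196 also was higher with JQ1, with 9.57 and 13.7 FPKM in LM3 against 3.45 and 3.76 FPKM with vehicle. In HepG2 it had 18.7 and 19.6 FPKM with JQ1 against 2.97 and 2.75 FPKM with vehicle. Its log2 fold changes were 1.54 (SE 0.19) in LM3 and 2.55 (SE 0.081) in HepG2.

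**Figure D2:**
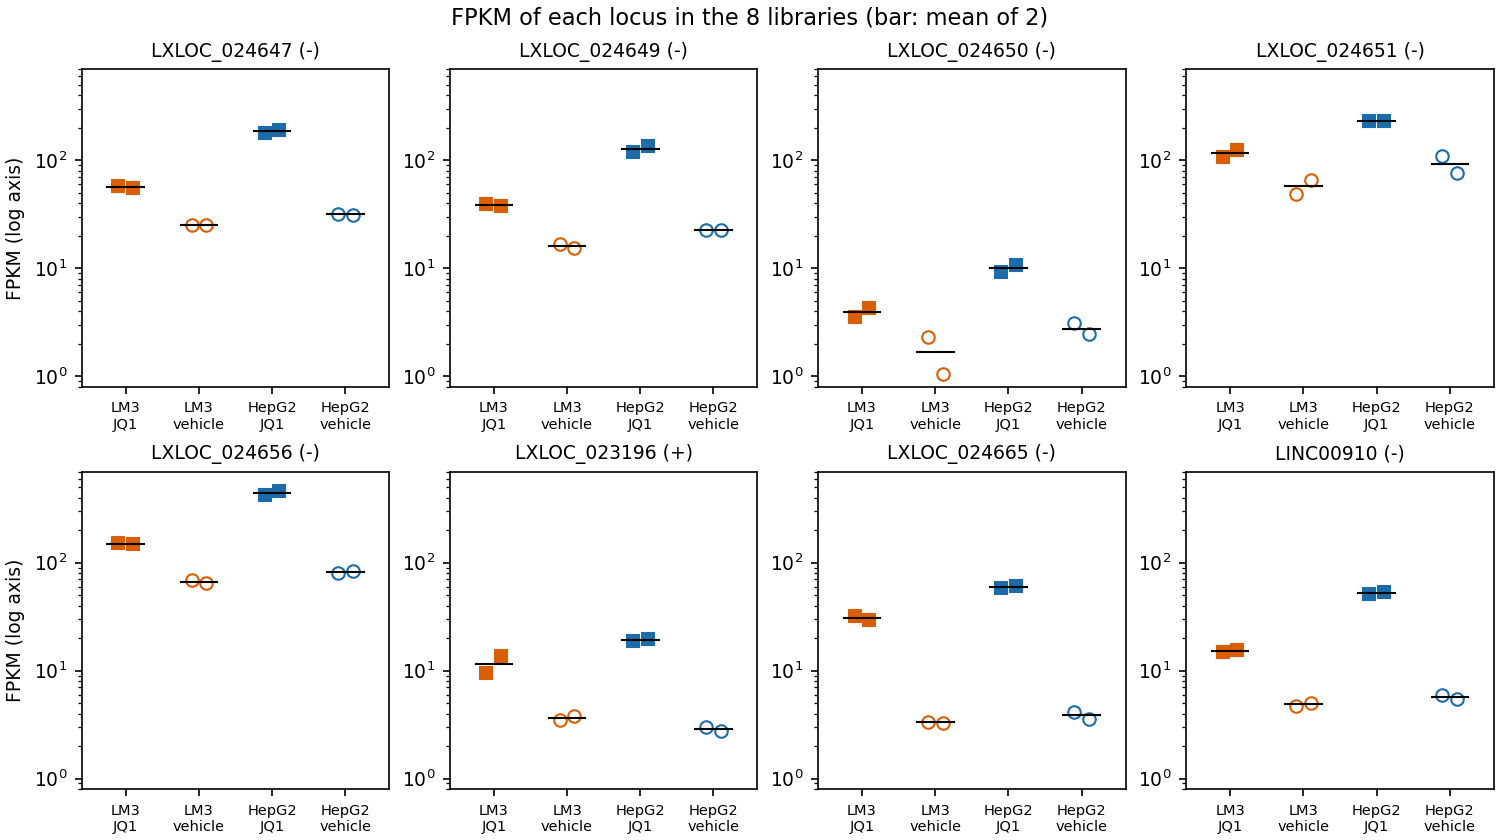
FPKM (log axis) of each locus in the 8 libraries, with JQ1 (filled squares) and vehicle (open circles) in LM3 (orange) and HepG2 (blue); bars are means of 2 libraries. In every panel both JQ1 libraries of a line lie above both of its vehicle libraries.

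The division of the summed FPKM among the 8 loci differed as well. Because some of the loci overlap on the same strand, these shares are of summed FPKM and not of amounts of RNA. The 5 loci with U2 copies held 86.4% and 86.4% of the region's FPKM in the LM3 JQ1 libraries, against 93.4% and 93.4% in LM3 vehicle. In HepG2 they held 88.2% and 88.5% with JQ1, against 94.9% and 94.8% with vehicle. LXLOC_024665 alone made up 7.73% and 6.79% of the region's FPKM in LM3 with JQ1, against 1.92% and 1.77% with vehicle. In HepG2 it made up 5.39% and 5.24% with JQ1, against 1.60% and 1.55% with vehicle. The median log2 fold change of the loci without an array copy was 1.55 in LM3 and 3.09 in HepG2 (n = 3 loci), against 1.15 in LM3 and 2.42 in HepG2 for the loci with copies (n = 5 loci). Whether the U2-bearing values come from mature U2 RNA or from longer transcripts of the array cannot be told apart in FPKM per locus.

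Both JQ1 libraries exceeded both vehicle libraries for 8 of 8 loci in LM3, where 27.0% of all tested loci did so, and for 8 of 8 in HepG2, where 32.4% did. In the limma fit over all loci, 7 of the 8 passed an adjusted p of 0.05 as higher in LM3, where 7.92% of all tested loci were called higher, 15.4% lower and 23.3% in either direction, and LXLOC_024650 did not. In HepG2 8 of 8 were called higher, where 10.8% of all tested loci were, with 14.2% lower and 25.1% in either direction. Nothing is read from these counts, because the JQ1 contrast led to the choice of the window. The median log2 fold change of the 8 was 1.19 in LM3 and 2.50 in HepG2, beside -0.084 and -0.0056 over all loci tested. Without any 1 of the LM3 libraries, or without either HepG2 JQ1 library, limma called none of the 8 in that line at an adjusted p of 0.05, while 7 or 8 had an unadjusted p under 0.05.

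The response was smaller in LM3 than in HepG2 for each of the 8 loci. The median difference, LM3 minus HepG2, was -1.13 for the 8 and -0.075 over all 5035 loci tested in both lines. Most of all loci tested thus also had a lower log2 fold change in LM3. The difference of log2 fold changes, LM3 minus HepG2, was -1.54 for LINC00910 (95% interval -1.80 to -1.28) and -1.38 for LXLOC_024647 (-1.61 to -1.15). It was -1.27 for LXLOC_024656 (-1.54 to -0.99), -1.24 for LXLOC_024649 (-1.55 to -0.94) and -1.01 for LXLOC_023196 (-1.55 to -0.47). LXLOC_024665, with the highest fold changes, differed less between the lines, by -0.77 (-1.10 to -0.45). The intervals of the nested loci included 0, at -0.61 for LXLOC_024650 (-1.57 to 0.34) and -0.33 for LXLOC_024651 (-1.03 to 0.37). That of LXLOC_024650 was -0.18 without LM3 vehicle replicate 1 and -1.04 without LM3 vehicle replicate 2. That of LXLOC_024651 was -0.54 without LM3 vehicle replicate 1, -0.12 without LM3 vehicle replicate 2, -0.59 without HepG2 vehicle replicate 1, -0.067 without HepG2 vehicle replicate 2 and -0.14 with quantile normalization. In the limma fit over both lines 4 of 8 were called lower in LM3, where 0.199% of 5035 loci were called lower, 0.0199% higher and 0.218% in either direction, namely LINC00910, LXLOC_024647, LXLOC_024656 and LXLOC_024649. These counts too describe loci chosen by their response, and 0 to 2 of the 8 were called by limma when 1 library was left out, with 6 or 7 at an unadjusted p under 0.05. With quantile normalization 2 of the 8 were called, and with replicate numbers as a block 0, with 6 at an unadjusted p under 0.05 under either.

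**Figure D3:**
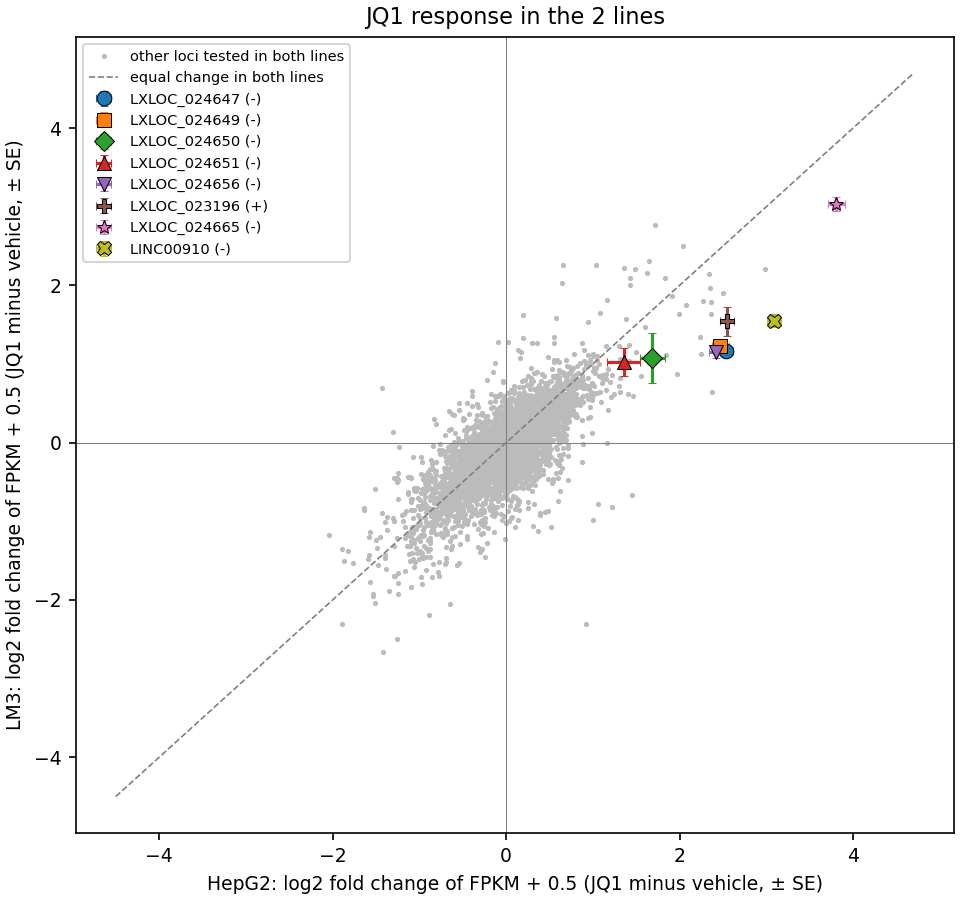
Log2 fold change of FPKM + 0.5 with JQ1 in LM3 (vertical axis) and HepG2 (horizontal axis), each with its SE, for the 8 loci (coloured symbols) and the other loci tested in both lines (grey). All 8 symbols lie below the dashed line of equal change, and LXLOC_024665 lies farthest to the upper right.

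Loci beside the window were taken by position, though this list too was chosen with earlier results of these data known. Within 500 kb on either side 11 loci had values, and 8 passed the filter on low values in each line, all of them on the side of lower coordinates. None of the 8 was called by limma in LM3 or in HepG2, where 23.3% and 25.1% of all loci tested were called. Over all loci, 2607 of 6474 in LM3 and 2376 of 5906 in HepG2 had an unadjusted p under 0.05. Of the 8 flanking loci, 1 in each line did. That one, named after its values were seen, was NBR2, a long noncoding RNA (ENSG00000198496; 43125551 to 43153671, plus strand), with 3.84 and 3.22 FPKM in LM3 with JQ1 and 2.19 and 2.60 FPKM with vehicle, and 2.58 and 2.91 FPKM in HepG2 with JQ1 and 2.12 and 1.92 FPKM with vehicle. Its log2 fold change was 0.48 (SE 0.13, limma adjusted p = 0.0659) in LM3 and 0.36 (SE 0.10, adjusted p = 0.0618) in HepG2. With libraries centred on their median, and with quantile normalization, it passed in both lines. The median log2 fold change of the 8 flanking loci was 0.11 in LM3 and 0.069 in HepG2. Most of the 8 lie in a single stretch from 43125551 to 43171037. There, some lie within NBR2 on its strand, and others have identical coordinates on the minus strand. The counts and the median therefore cover fewer than 8 separate loci. LXLOC_024646 (43216941 to 43305397, minus), which crosses the window's lower edge, has the coordinates of the coding gene CCDC200 and spans the whole U2 array, was at 0 in 7 libraries and at 0.05 FPKM in 1. The nearest locus on the other side, MIR2117HG (43444707 to 43451200, plus), was at 0.10 FPKM or below in every library. Nearest the edges among the 8, LXLOC_024647 and LINC00910 had the values given above.

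Of the 8 loci, LINC00910 had a promoter in RefSeq (GRCh38.p14; 250 bases before to 50 after a start at 43388898, chr17:43388849-43389148, minus strand), and it is shown because it lies outside the array. The deposited locus begins 301 bases farther upstream. Capitals mark the one match found.
LINC00910 promoter: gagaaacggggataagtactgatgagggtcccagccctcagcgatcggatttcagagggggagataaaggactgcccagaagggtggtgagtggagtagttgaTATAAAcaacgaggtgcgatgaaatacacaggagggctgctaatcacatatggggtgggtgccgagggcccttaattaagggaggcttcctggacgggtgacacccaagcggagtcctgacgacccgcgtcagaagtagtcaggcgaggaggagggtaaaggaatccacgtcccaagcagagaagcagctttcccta
Both strands were searched for the octamer of small nuclear RNA enhancers (ATGCAAAT), the E-box (CACGTG), the GC box (GGGCGG), the CAAT box (CCAAT) and the TATA word (TATAAA). A single match was present, TATAAA at position -147 from the start, a word found on either strand in 11.5% of 35116 RefSeq promoters of this length. The octamer occurred in 1.77% of promoters, the E-box word in 7.26%, the GC box in 45.0% and the CAAT box in 34.6%. The G and C content was 55.0%, against a median of 58.7% over all these promoters.

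Other small nuclear RNA genes, mostly of the spliceosome and with those of U7 and 7SK included, served as a comparison list by annotation. It was likewise chosen with earlier results of these data known. With the 8 loci left out, 35 loci overlapped such a gene or lay within 10 kb of one, and 19 were tested in LM3 and 21 in HepG2. The list includes LXLOC_024646, which spans RNU2-1 and was not tested in either line. Limma called 5 higher and 2 lower in LM3, and 7 higher and 2 lower in HepG2. Of all loci tested 7.92% in LM3 and 10.8% in HepG2 were called higher, and 15.4% and 14.2% lower. Without any 1 LM3 library, or without either HepG2 JQ1 library, limma called none of the list in that line, while 7 to 12 in LM3 and 9 or 10 in HepG2 had an unadjusted p under 0.05. The list's median log2 fold change was 0.070 in LM3 and 0.16 in HepG2. LXLOC_013953, on the same strand as the U4 genes RNU4-1 and RNU4-2 on chromosome 12 and overlapping RNU4-2, had 7.69 and 7.99 FPKM in LM3 with JQ1 and 1.31 and 1.60 FPKM with vehicle. In HepG2 it had 5.03 and 4.24 FPKM with JQ1 and 1.03 and 0.86 FPKM with vehicle. The log2 fold changes, 2.10 (SE 0.11, limma adjusted p = 0.00533) in LM3 and 1.83 (SE 0.12, adjusted p = 0.00587) in HepG2, passed in both lines. ENSG00000285646, which overlaps the U5 gene RNU5E-1 on chromosome 1, rose by 0.86 (SE 0.098, adjusted p = 0.0117) in LM3 and by 1.22 (SE 0.077, adjusted p = 0.0055) in HepG2.

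Among loci at variant U1 genes of chromosome 1, ENSG00000287979, which overlaps RNVU1-19, had 23.9 and 27.9 FPKM in LM3 with JQ1 and 7.94 and 7.95 FPKM with vehicle. In HepG2 it had 32.6 and 32.95 FPKM with JQ1 and 6.03 and 5.90 FPKM with vehicle (log2 fold change 1.64 in LM3 and 2.36 in HepG2; adjusted p = 0.00565 and 0.00144). LXLOC_001485 and ENSG00000276216, near and over RNVU1-14, rose by 1.90 and 1.11 in LM3 (adjusted p = 0.00533 and 0.00906) and by 2.49 and 1.84 in HepG2 (adjusted p = 0.00487 and 0.00615). ENSG00000287190, which overlaps RNVU1-6, rose by 1.09 in HepG2 (adjusted p = 0.00749), and in LM3 its log2 fold change was 0.52 (adjusted p = 0.0626). LINC00623, which overlaps RNVU1-4, went the other way, with 4.38 and 4.72 FPKM in LM3 with JQ1 and 9.28 and 9.94 FPKM with vehicle (log2 fold change -1.0, adjusted p = 0.00908), and -0.83 in HepG2 (adjusted p = 0.0102). ENSG00000270022, which overlaps the gene of the minor-spliceosome RNA U12 and was chosen after its values were seen, rose in HepG2 (1.56, SE 0.16, adjusted p = 0.00873), and was at 0.85 in LM3 (SE 0.23, adjusted p = 0.0671). The remaining called loci, also named after their values were seen, were lower with JQ1. ENSG00000232721, within 10 kb of RNVU1-18, was at -0.50 in LM3 (limma adjusted p = 0.048) and was not tested in HepG2. ENSG00000238142, within 10 kb of RNU1-2, was at -0.43 in HepG2 (limma adjusted p = 0.0242) and -0.51 in LM3 (adjusted p = 0.151). By a split also made after the values were seen, loci that overlap a listed gene on its own strand had 4 higher and 1 lower of 9 in LM3 and 6 higher and 1 lower of 9 in HepG2. The other loci of the list had 1 higher and 1 lower of 10 in LM3 and 1 higher and 1 lower of 12 in HepG2. Over all loci tested, 7.92% were called higher and 15.4% lower in LM3, and 10.8% higher and 14.2% lower in HepG2.

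**Figure D4:**
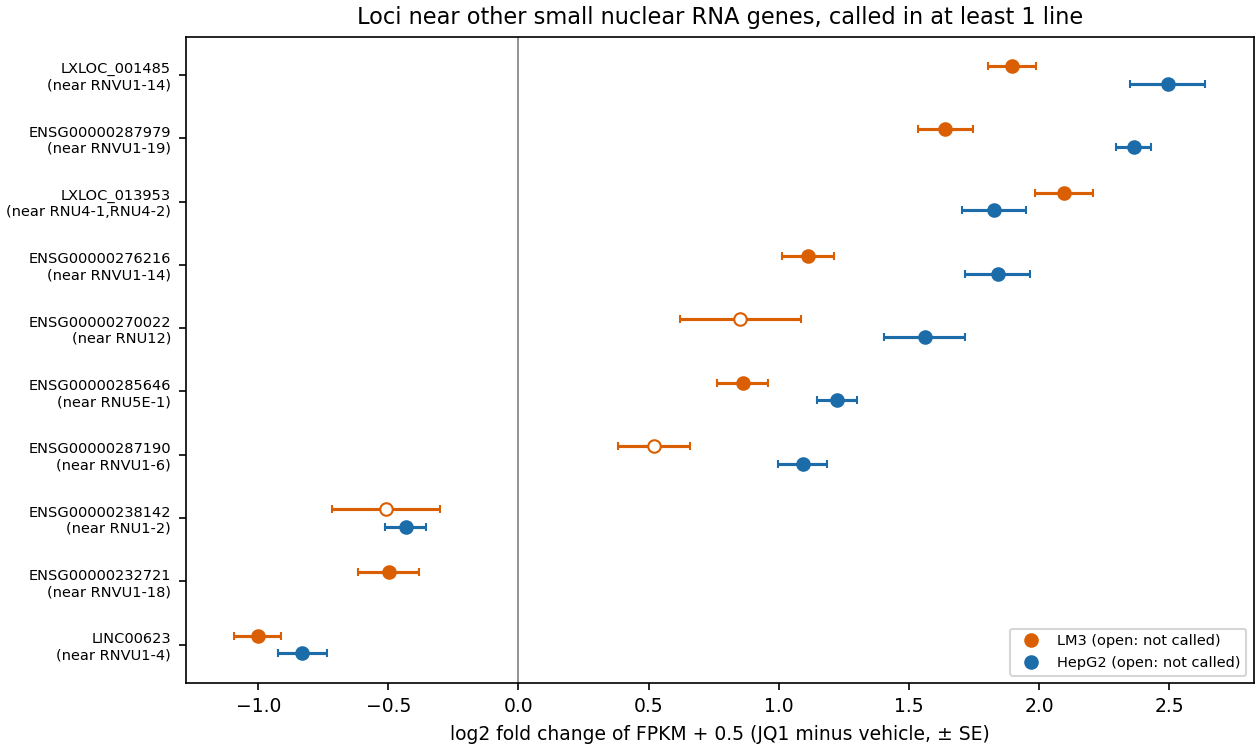
Log2 fold change of FPKM + 0.5, JQ1 minus vehicle, with its SE, in LM3 (orange) and HepG2 (blue) for the loci near other small nuclear RNA genes that limma called in at least 1 line (open symbols, not called in that line; no symbol, not tested there). The upper 7 loci lie above 0 in both lines, and LINC00623 lies lowest in both.

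The loci outside the window whose pattern was most like that of LINC00910 were found from the root mean square difference in log2(FPKM + 0.5), each line set to its vehicle mean, over the 8 libraries and 5034 other loci. The closest were ENSG00000273199 on chromosome 21 (difference 0.35), LXLOC_001485 and ENSG00000287979 of the U1 variant region (0.35 and 0.37), LXLOC_001546 on chromosome 1 (0.38) and LXLOC_047956 on chromosome 6 (0.44). ENSG00000273199 had 3.11 and 2.75 FPKM in LM3 with JQ1 and 0.24 and 0.24 FPKM with vehicle, and in HepG2 4.41 and 5.11 FPKM with JQ1 and 0.25 and 0.09 FPKM with vehicle. These vehicle values lie below the 0.5 FPKM added before the log, which understates the change, so the likeness depends partly on that constant. The LM3 vehicle means of LXLOC_001485 (0.425 FPKM) and LXLOC_047956 (0.23 FPKM) lie below it too. Within the window LXLOC_023196 was closest to LINC00910, at 0.29, and LXLOC_024651 farthest, at 0.92.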

How the data were processed

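Total RNA was sequenced as paired ends after removal of rRNA, per the labels' protocols. The authors deposited 1 table of FPKM per locus for LM3 and 1 for HepG2, per the file headers. Of 23161 loci listed, 7692 had no values, and 15469 remained. The submitters' processing notes list hg19, mm8 and Bowtie 0.12.2, giving no role for any of them. The coordinates are those of GRCh38, since of 8463 Ensembl IDs found in GENCODE release 29 (GRCh38) 99.9% matched in chromosome, 83.9% in start and 84.3% in end. What counted the fragments, and how many there were, is not given in the sources used here, so depth is unknown and counting error per locus cannot be given.

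JQ1 was compared with vehicle within each line by limma 3.58.1 (R 4.3.3, trend and robust) on log2(FPKM + 0.5), keeping loci whose average in the line reached 0.5 FPKM, two-sided, with Benjamini-Hochberg adjustment over all loci tested and a threshold of 0.05. The difference between lines came from 1 fit over all 8 libraries. The fits were tested on simulated data. Members, lists and tests were chosen with earlier results of these data known. Named loci were all 8 members, called flanking loci and the nearest on each side, up to 6 called loci per line near small nuclear RNA genes, and the 5 loci most like LINC00910. NBR2, ENSG00000270022, ENSG00000232721 and ENSG00000238142 fall outside this rule and were named after their values were seen. Sequences were aligned with Biopython 1.88, and plots made with matplotlib 3.10.9. Other pseudocounts, filters, scalings, a replicate block and left-out libraries were tried.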

Additional observations from a re-analysis of the deposited data

Results flagged for a closer look

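The difference between the lines' responses to JQ1 passed an adjusted p of 0.05 in the limma fit over all loci for 4 of the 8 loci of the window, which were chosen with their responses known, and for 0.218% of all 5035 loci tested. LM3 minus HepG2, it was -1.54 for LINC00910 (log2 fold change 1.55 in LM3 and 3.09 in HepG2) and -1.38 for LXLOC_024647 (1.16 in LM3 and 2.54 in HepG2). It was -1.27 for LXLOC_024656 (1.15 in LM3 and 2.42 in HepG2) and -1.24 for LXLOC_024649 (1.23 in LM3 and 2.47 in HepG2). With quantile normalization 2 of the 8 were called, with replicate numbers as a block 0, and with 1 library left out 0 to 2. Of the 26 flanking loci and loci near other small nuclear RNA genes tested in both lines, limma called 0, and 6 had an unadjusted p under 0.05. Over all 5035 loci 604 had an unadjusted p under 0.05. With 0.218% of all loci called, a count of 0 among 26 could hardly differ, so it is no contrast to the window.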

How the results depend on the processing

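Every log2 fold change of the 8 loci, and every difference between lines, kept its sign under all alternatives. Calls over all loci numbered 1511 in LM3, 1480 in HepG2 and 11 for the difference between lines. Without the filter on low values they were 857 in LM3 (6 of the 8 loci, against 7, with LXLOC_024651 no longer called), 852 in HepG2 and 94 for the difference. With the filter at 1 FPKM they were 975 in HepG2 and 7 for the difference, where fewer loci were tested. The difference had 7 calls with a pseudocount of 0.1, 19 with a pseudocount of 1, 20 with libraries centred on their median and 5 with quantile normalization, and under quantile normalization 2 of the 8 loci were called in it. Of the flanking loci, centring and quantile normalization called 1 in each line. The cause was not tested. Rises were 34.0% of the LM3 calls, against 47.6% when centred and 49.4% with quantile normalization.

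Leaving out 1 library gave 0 calls in LM3 and 0 to 519 in HepG2, and 0 to 3 for the difference. Among the 8 loci such fits called 0 in LM3, 0 to 8 in HepG2 and 0 to 2 for the difference, where all fits but that without LM3 JQ1 replicate 2 called 0. Among loci near small nuclear RNA genes they called 0 in LM3 and 0 to 8 in HepG2. In these fits the lone library of a group is assumed to vary like the other group. At an unadjusted p under 0.05 there were 1605 to 2366 loci in LM3 and 1714 to 2062 in HepG2.

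Replicate numbers did not pair the libraries by the deviations of same-numbered libraries (correlation 0.135 in LM3 and -0.035 in HepG2). With replicates as a block the difference between lines had 0 calls in limma (505 at an unadjusted p under 0.05), 0 of them among the 8 loci. The total counts of calls in each line and each list stayed within 1.5 times, but in the LM3 list near small nuclear RNA genes 6 were higher and 1 lower, against 5 higher and 2 lower without the block. Without fragment totals, what depth limits cannot be stated from FPKM alone.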
